A study of Mus musculus with 15 samples.

Results

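10 genes of the nuclear lamina, of the inner nuclear membrane and of nuclear DNA breakdown were followed in cultured mouse lens cells. They were chosen by name (*Lmna*, *Lmnb1*, *Lmnb2*, *Lbr*, *Tmpo*, *Emd*, *Sun1*, *Sun2*, *Banf1* and *Dnase2a*) and matched to the gene symbols of the 2 deposited tables. All 10 were found in both tables, among 11677 genes in the table of cultures and 11299 genes in the table of spheroid regions. The cells were 21EM15, an immortalized mouse lens epithelial line, and all samples are labelled WT, with no agent named for any group. There were 4 groups. The 2D cultures were a dish at 80% confluence per sample (n = 4). The 3D spheroids were pooled by 60 per sample after 10 days of culture (n = 4). The Internal (n = 4) and External (n = 3) regions of spheroids were isolated by laser capture microdissection. This used 10 µm frozen sections of 120 spheroids per replicate. All samples therefore come from a single line, and each 3D or regional sample pools many spheroids. Each replicate was a dish or a pool of spheroids of its own, but no source says whether these were grown at separate times or passages. Nor is it said whether an Internal and an External sample of the same number came from the same pool. The p-values below therefore measure the spread between these samples only.

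RNA was measured by QuantSeq 3′ end sequencing, in which each transcript gives reads only from its end, so that read numbers do not scale with transcript length. The deposited unit is log2 CPM, the log2 of read counts scaled to the library size (CPM), and the CPM values below are the same values on a linear scale with the deposited scaling. The totals over the listed genes were 7305053 to 9362587 reads per 2D sample, 7727642 to 8364276 per 3D sample, 4044230 to 6086089 per External sample and 4256391 to 11702504 per Internal sample. A count of 3 reads, taken as the smallest signal this depth can show, corresponds to 0.248 to 0.802 CPM and covers counting error only. Of 8 lens markers, 5 were listed in each table, while the crystallin gene *Cryaa*, the lens epithelial factor gene *Foxe3* and the E-cadherin gene *Cdh1* were listed in neither. Endothelial markers (0 of 4 listed in either table) were absent from the tables, and macrophage markers (1 of 4 listed for the cultures, 2 of 4 for the regions) summed to 0.383 to 1.64 CPM in the culture samples, to 0.165 to 10 CPM in the External samples and to 2.06 to 8.20 CPM in the Internal samples. The samples numbered 2 stood apart among the cultures: *Cdk1* had 116 reads in 2D replicate 2 and 164 in 3D replicate 2, against 859 to 4228 in the other 6 culture samples, and several genes described below were also low in these samples.

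The nuclear lamina is a meshwork of A-type lamins (from *Lmna*) and B-type lamins (from *Lmnb1* and *Lmnb2*) beneath the inner nuclear membrane. Proteins of that membrane tether chromatin to it, among them the lamin B receptor and the LEM-domain proteins emerin and LAP2, while SUN proteins span it and pair with nesprins to link the lamina to the cytoskeleton in the LINC complex. In the lens, epithelial cells that become fiber cells stop dividing, dismantle the nuclear envelope and degrade their DNA, which leaves the lens core without nuclei. The acid deoxyribonuclease encoded by *Dnase2b* is the main lens enzyme for that last step, and *Dnase2a* encodes its widely expressed relative. *Dnase2b* was listed in neither table, so that of the 10 genes only *Dnase2a* bears directly on DNA degradation.

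Several of these genes moved together with proliferation genes in the values described below, so their promoters were searched for letters that mark cell cycle promoters. RefSeq promoters (GRCm38.p6, 250 bases before to 50 bases after the start) were found for 9 of the 10 genes, 14 promoters in all, and *Lmnb1* had no entry. The motifs were the CHR element (TTTGAA or TTCGAA), an E2F site (TTCCCGC or TTGGCGC), the CCAAT box (CCAAT) and an E-box (CACGTG), each on both strands. The letters of an E2F site and a CCAAT box can overlap, which they did not in the stretches shown. The 200 bases directly before the start are shown for *Lbr*, the first of 2 *Lmnb2* starts and the second of 2 *Tmpo* starts, which hold CHR or E2F matches in genes that fell in the Internal region, and for *Sun2*, which did not fall. The other starts of *Lmnb2* and *Tmpo* and both starts of *Lmna*, which fell as well, held neither a CHR nor an E2F match. Each is written 5′ to 3′ on the gene's own strand, and capitals mark the motif matches.
Lbr: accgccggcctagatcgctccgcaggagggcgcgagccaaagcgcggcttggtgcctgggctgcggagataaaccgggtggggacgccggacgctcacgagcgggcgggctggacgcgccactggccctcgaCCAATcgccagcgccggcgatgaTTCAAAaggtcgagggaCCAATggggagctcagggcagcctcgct
Lmnb2: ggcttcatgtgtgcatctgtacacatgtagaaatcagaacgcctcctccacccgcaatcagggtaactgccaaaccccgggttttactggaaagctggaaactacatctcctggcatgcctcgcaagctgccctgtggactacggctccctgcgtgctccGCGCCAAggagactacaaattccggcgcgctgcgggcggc
Tmpo: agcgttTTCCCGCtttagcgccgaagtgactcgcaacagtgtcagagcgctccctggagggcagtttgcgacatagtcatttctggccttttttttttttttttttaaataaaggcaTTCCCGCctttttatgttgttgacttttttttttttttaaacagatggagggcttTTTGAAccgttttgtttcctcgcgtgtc
Sun2: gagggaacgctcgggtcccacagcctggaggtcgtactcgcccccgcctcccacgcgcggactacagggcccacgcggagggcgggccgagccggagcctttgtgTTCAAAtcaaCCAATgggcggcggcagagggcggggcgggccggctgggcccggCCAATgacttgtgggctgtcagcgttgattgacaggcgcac
The *Lbr* stretch is chr1:181842402-181842601 on the minus strand and holds a CHR match at position -45 and CCAAT boxes at -68 and -28, counted from the start of transcription to the first base of the match. The *Lmnb2* stretch is chr10:80918246-80918445 on the minus strand, with an E2F match at -40. The *Tmpo* stretch is chr10:91170551-91170750 on the minus strand, with a CHR match at -28 and E2F matches at -194 and -83. The *Sun2* stretch is chr15:79742537-79742736 on the minus strand, with a CHR match at -95 and CCAAT boxes at -85 and -41. Over the 14 promoters, 3 held a CHR match, 3 an E2F match, 9 a CCAAT box and 0 the E-box. Of all 32851 promoters of this length, 19.2% held a CHR match, 6.81% an E2F match, 37.4% a CCAAT box and 7.15% the E-box. A match is a description of the sequence only. *Sun2*, which fell in neither comparison, held a CHR match and CCAAT boxes as well, and *Banf1*, which was called in neither, held an E2F match at -80.

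Gene positions are those of GENCODE vM21 on GRCm38. *Lmna* is at chromosome 3, 88480147 to 88509956, *Lmnb1* at chromosome 18, 56707813 to 56753424, *Lmnb2* at chromosome 10, 80901203 to 80918245, and *Lbr* at chromosome 1, 181815335 to 181843046. *Tmpo* is at chromosome 10, 91147571 to 91181315, *Emd* at chromosome X, 74254687 to 74261548, and *Banf1* at chromosome 19, 5364638 to 5367168. *Sun1* is at chromosome 5, 139200637 to 139249840, *Sun2* at chromosome 15, 79724070 to 79742536, and *Dnase2a* at chromosome 8, 84908560 to 84922915. Reads from all ends of a gene were counted together, so the lamin A and lamin C transcripts of *Lmna* and the LAP2 isoforms of *Tmpo*, whose coding transcripts end at places spread over 21605 and 12846 bases, could not be told apart. A 50-base stretch shared with another gene was found in the last 300 bases of 1 of 4 coding transcripts of *Emd*, 1 of 14 of *Sun1* and 1 of 4 of *Dnase2a*, where uniquely mapped reads could be lost. *Lbr* overlaps *Gm26004* and *Emd* overlaps *Gm14686* on the same strand, so their reads carry that uncertainty.

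In every group, *Lmna* had the highest level of the 10 genes and *Dnase2a* the lowest. *Lmna* reached 2536 ± 535 CPM in 2D (SD, n = 4), which placed it at percentile 99.7 of the table, and *Dnase2a* reached 1.97 ± 1.73 CPM, at percentile 5.52. The order below *Lmna* in 2D was *Banf1*, *Lmnb1*, *Tmpo*, *Sun2*, *Lbr*, *Emd*, *Lmnb2* and *Sun1*, and the neighbours from *Banf1* down to *Emd* overlapped pairwise in their samples, as did *Lmnb2* and *Sun1*. By mean log2 CPM, *Lmnb1* ranked 3 in 2D (234 ± 52.8 CPM, n = 4) and 5 in 3D (104 ± 10.4 CPM, n = 4). In 3D its samples overlapped those of *Emd* just below it, whose mean was higher on the linear scale (107 ± 32.7 CPM, n = 4). In the regions, which were normalized apart from the cultures, *Lmnb1* ranked 3 in the External samples (92.2 ± 17.1 CPM, n = 3) and 8 in the Internal samples (20.6 ± 3.82 CPM, n = 4), where its values overlapped those of *Banf1* above it and *Lbr* below it. *Sun2* ranked 2 in both regions.

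**Figure D1:**
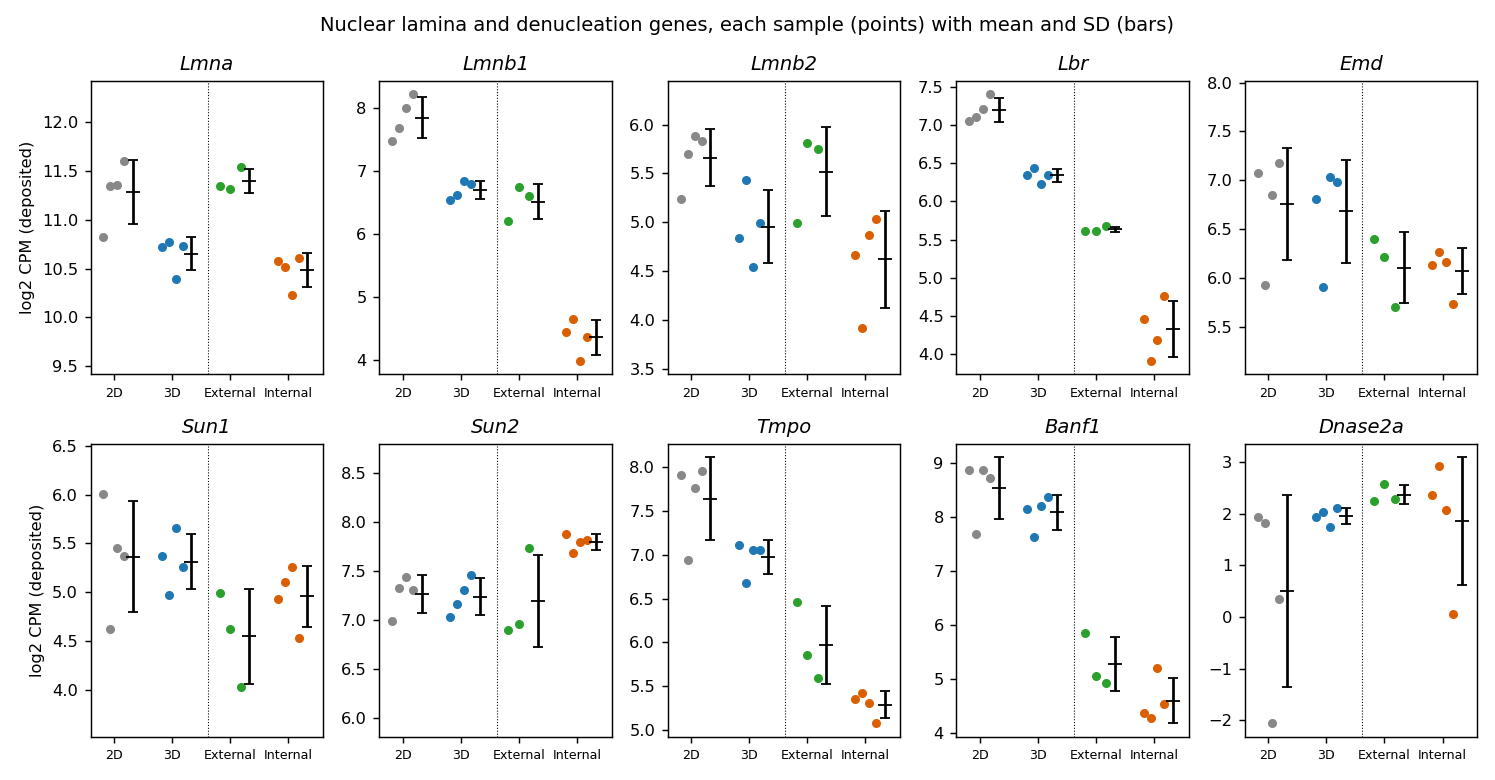
Deposited log2 CPM of the 10 genes in each sample (points) with the group mean and SD (bars), for 2D, 3D, External and Internal samples. The dotted line separates the 2 tables, which were normalized separately. *Lmna*, *Lmnb1* and *Lbr* do not overlap between 2D and 3D or between External and Internal, while *Emd* overlaps in both pairs.

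The first comparison asked how the genes differ between cells grown as 3D spheroids and cells in 2D. All 3 lamin genes and *Lbr* fell in 3D, by 1.54-fold for *Lmna*, 2.21-fold for *Lmnb1*, 1.63-fold for *Lmnb2* and 1.80-fold for *Lbr*. The SUN genes and emerin differed by -0.07 to -0.03 on the log2 scale, with wide intervals for *Emd* and *Sun1*. In limma fits of all 11677 genes with p-values adjusted by Benjamini-Hochberg, 4 of the 10 genes were lower in 3D at an adjusted p under 0.05, against 9.25% of all genes tested. Called higher were 0 of the 10, against 9.74% of all genes, with 0 higher and 5 lower at an unadjusted p under 0.05 and 0 higher and 4 lower by voom on the recovered reads. The median log2 fold change of the 10 genes was -0.54, beside -0.03 over all genes, and 9 of the 10 were below 0, beside 52.2% of all genes. With 1 sample left out, 7 to 9 were below 0. Under the stricter rule of an adjusted p under 0.01 with an absolute log2 fold change over 1, the number lower in 3D was 1 of 10 (*Lmnb1*), against 1.51% of all genes.

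Among the lamins, *Lmna* had 1813, 2598, 2628 and 3105 CPM in 2D replicates 1 to 4 and 1685, 1749, 1349 and 1697 CPM in 3D replicates 1 to 4. Every 2D sample lay above every 3D sample, though 2D replicate 1 came close to the 3D samples. On the log2 scale the difference was -0.63 ± 0.18 (SE), with a 95% interval of -1.02 to -0.23 and a limma adjusted p of 0.0344. *Lmnb1*, the B-type lamin gene, had 178, 206, 255 and 298 CPM in 2D and 93.1, 98.1, 115 and 111 CPM in 3D. The lowest 2D sample was well above the highest 3D sample, and the 2D samples spread more than the 3D samples. Its log2 fold change was -1.14 ± 0.17 (SE), with a 95% interval of -1.51 to -0.77 and an adjusted p of 0.00203, rank 188 of the table by p. *Lmnb2*, which encodes the other B-type lamin, had 37.4, 51.9, 58.6 and 56.5 CPM in 2D and 28.5, 43.1, 23.0 and 31.6 CPM in 3D. The groups overlapped, because 2D replicate 1 lay below 3D replicate 2. It differed by -0.71 ± 0.22 (SE) on the log2 scale, with an adjusted p of 0.0440. The calls of *Lmna* and *Lmnb2* were close to the threshold. That of *Lmna* was lost in 6 of the 8 fits that left out 1 sample, namely 2D replicate 3 or 4 or any 3D replicate, with an adjusted p of 0.0553 to 0.104 in those fits. That of *Lmnb2* was lost without 2D replicate 2, 3 or 4 or 3D replicate 1, 3 or 4, with an adjusted p of 0.0566 to 0.124, whereas *Lmnb1* and *Lbr* kept their calls in all 8 fits.

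The lamin B receptor gene *Lbr*, whose product binds B-type lamins and heterochromatin proteins, had 132, 137, 148 and 168 CPM in 2D and 80.6, 86.4, 74.9 and 80.9 CPM in 3D. The groups were far apart relative to their spread, and the 3D samples were nearly equal. 3D minus 2D was -0.85 ± 0.12 (SE) on the log2 scale, with a 95% interval of -1.12 to -0.58 and a limma adjusted p of 0.00189. *Tmpo*, which encodes LAP2, had 240, 123, 215 and 247 CPM in 2D and 138, 102, 132 and 133 CPM in 3D. The groups overlapped only through 2D replicate 2, one of the samples that stood apart. The log2 fold change of -0.66 ± 0.22 (SE) did not pass the test (adjusted p 0.0558), and it did pass without 2D replicate 2 (-0.90, adjusted p 0.00196) or without both samples numbered 2 (-0.80, adjusted p 0.00331), but not without 3D replicate 2 alone (-0.57, adjusted p 0.133). *Banf1* encodes the small protein that bridges DNA and LEM-domain proteins, and it had 468, 207, 473 and 426 CPM in 2D and 286, 198, 298 and 331 CPM in 3D. Replicate 2 was again the lowest in each group, and the log2 fold change was -0.45 ± 0.26 (SE; adjusted p 0.258), or -0.74 with an adjusted p of 0.0133 without 2D replicate 2 and -0.30 with an adjusted p of 0.492 without 3D replicate 2. Without both it was -0.58 (adjusted p 0.0142). *Emd*, the emerin gene, had 135, 60.7, 115 and 145 CPM in 2D and 112, 59.8, 131 and 127 CPM in 3D. It differed between the samples numbered 2 and the others in both groups, but its means lay at 6.76 ± 0.57 and 6.68 ± 0.53 log2 CPM (SD, n = 4 each), with a 95% interval of the difference of -0.76 to 0.61.

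*Sun1* and *Sun2* encode the SUN proteins of the LINC complex in most tissues. *Sun1* had 64.2, 24.4, 43.5 and 41.0 CPM in 2D and 41.1, 31.2, 50.1 and 37.9 CPM in 3D, and *Sun2* had 127, 160, 174 and 158 CPM in 2D and 130, 143, 158 and 176 CPM in 3D. The groups overlapped throughout for both genes. The log2 fold change was -0.05 for *Sun1* (95% interval -0.64 to 0.54, adjusted p 0.916) and -0.03 for *Sun2* (95% interval -0.34 to 0.28, adjusted p 0.909). *Dnase2a* had 34, 24, 0 and 10 reads in the 2D samples and 28, 31, 24 and 33 reads in the 3D samples. The 3D samples were alike while the 2D samples ranged from 0 to 3.56 CPM. Its difference of 1.44 ± 0.76 (SE) on the log2 scale did not pass the test (adjusted p 0.208), and its 95% interval ran from -0.23 to 3.12. It was 0.59 without 2D replicate 3, the sample with 0 reads, and 1.09 to 1.97 with other prior counts, and it passed the test in none of these.

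The second comparison asked how the genes differ between the inside of a spheroid and its outer region. Its External samples leave out 1 that the authors set aside because its expression differed from the others. The 3 lamin genes, *Lbr* and *Tmpo* were lower in the Internal region, by 1.88-fold for *Lmna*, 4.44-fold for *Lmnb1*, 1.86-fold for *Lmnb2*, 2.47-fold for *Lbr* and 1.6-fold for *Tmpo*, and *Sun2* was 1.51-fold higher. Library composition moved with the region: the 10 most abundant genes took 12.1% to 12.9% of the reads in the External and 15.3% to 18.1% in the Internal samples. Its part in these differences was not tested. With the median of all genes set to 0 in each sample, the lamin genes, *Lbr* and *Tmpo* were again called lower. With library totals alone the lamin genes and *Lbr* were called lower and *Tmpo* was not (limma adjusted p 0.0783). Neither scaling is a test of library composition. With limma and adjustment over all 11299 genes, 5 of the 10 genes were lower in the Internal region, against 12.1% of all genes, and 1 of the 10 was higher, against 9.58% of all genes. The median log2 fold change of the 10 genes was -0.68, beside 0.04 over all genes, and 8 of the 10 were below 0, beside 47.1% of all genes. Those below 0 numbered 6 without Internal replicate 4 and 7 with library totals alone. The stricter rule called 2 of the 10 lower (*Lmnb1* and *Lbr*), against 4.35% of all genes. Groups that did not overlap were seen for 4 of the 10 genes, all lower in the Internal region, against 15.4% of all genes in that direction. In 3D against 2D this held for 3 of the 10 genes, all lower in 3D, against 12.0% of all genes.

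*Lmnb1* had 73.3, 107 and 96.8 CPM in External replicates 1 to 3 and 21.4, 24.8, 15.6 and 20.4 CPM in Internal replicates 1 to 4, corresponding to 362 to 490 and 68 to 247 reads. The highest Internal sample was far below the lowest External sample. Internal minus External was -2.15 ± 0.23 (SE) on the log2 scale, with a 95% interval of -2.63 to -1.67 and a limma adjusted p of 5.01e-07, rank 84 of the table by p. *Lmna* had 2599, 2546 and 2976 CPM in the External samples and 1529, 1463, 1202 and 1567 CPM in the Internal samples. These groups were also far apart, at -0.91 ± 0.13 (SE) on the log2 scale with a 95% interval of -1.19 to -0.64 and an adjusted p of 2.33e-05. *Lmnb2* had 31.5, 55.9 and 53.5 CPM in the External samples and 25.0, 14.8, 28.9 and 32.4 CPM in the Internal samples. External replicate 1 lay within the Internal range. Its log2 fold change was -0.90 ± 0.29 (SE; adjusted p 0.0260), and the call was lost without External replicate 2, External replicate 3 or Internal replicate 2, with adjusted p-values of 0.150, 0.118 and 0.0955.

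*Lbr* had 48.4, 48.7 and 50.8 CPM in the External samples and 21.7, 14.8, 17.9 and 26.7 CPM in the Internal samples. The External samples were nearly equal and all lay above the Internal samples, and the log2 fold change was -1.30 ± 0.26 (SE) with a limma adjusted p of 0.000607. *Tmpo* had 87.6, 57.9 and 48.1 CPM in the External samples and 40.8, 42.6, 39.4 and 33.5 CPM in the Internal samples. The groups did not overlap, but External replicate 3 was close to the Internal samples. The log2 fold change of -0.68 ± 0.22 (SE; adjusted p 0.0316) lost its call without External replicate 1 (-0.44, adjusted p 0.206), External replicate 2 (0.0655), Internal replicate 1 (0.0517) or Internal replicate 4 (0.0762). *Banf1* had 57.5, 33.1 and 30.2 CPM in the External samples and 20.4, 19.3, 36.9 and 22.9 CPM in the Internal samples, and Internal replicate 3 lay within the External range. Its log2 fold change of -0.68 ± 0.29 (SE) did not pass the test (adjusted p 0.0951), and did so without Internal replicate 3 (-0.88, adjusted p 0.0320) and by voom (adjusted p 0.0427). It was -0.39 without External replicate 1 (adjusted p 0.415). *Emd* had 84.3, 74.0 and 51.9 CPM in the External samples and 70.0, 76.9, 71.2 and 52.9 CPM in the Internal samples. Its groups overlapped fully, with a log2 fold change of -0.03 and a 95% interval of -0.45 to 0.39.

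*Sun2* had 119, 124 and 214 CPM in the External samples and 236, 206, 222 and 225 CPM in the Internal samples. The Internal samples were tightly grouped, and External replicate 3 lay among them while the other External samples were far lower. The log2 fold change was 0.60 ± 0.18 (SE; limma adjusted p 0.0163), and the call was lost without External replicate 1 (0.45, adjusted p 0.104) or External replicate 2 (0.48, adjusted p 0.117). *Sun1* had 31.5, 24.4 and 16.0 CPM in the External samples and 30.3, 34.2, 38.0 and 22.9 CPM in the Internal samples. The groups overlapped, with a log2 fold change of 0.41 (95% interval -0.17 to 0.99, adjusted p 0.323). *Dnase2a* had 27, 26 and 17 reads in the External samples and 32, 63, 17 and 9 reads in the Internal samples, that is 0.744 to 7.27 CPM inside and 4.45 to 5.66 CPM outside. The interval of its difference ran from -1.87 to 0.84 on the log2 scale (adjusted p 0.623), and Internal replicate 4, with 9 reads, was the deepest library of the table. Without that sample the difference was 0.08.

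**Figure D2:**
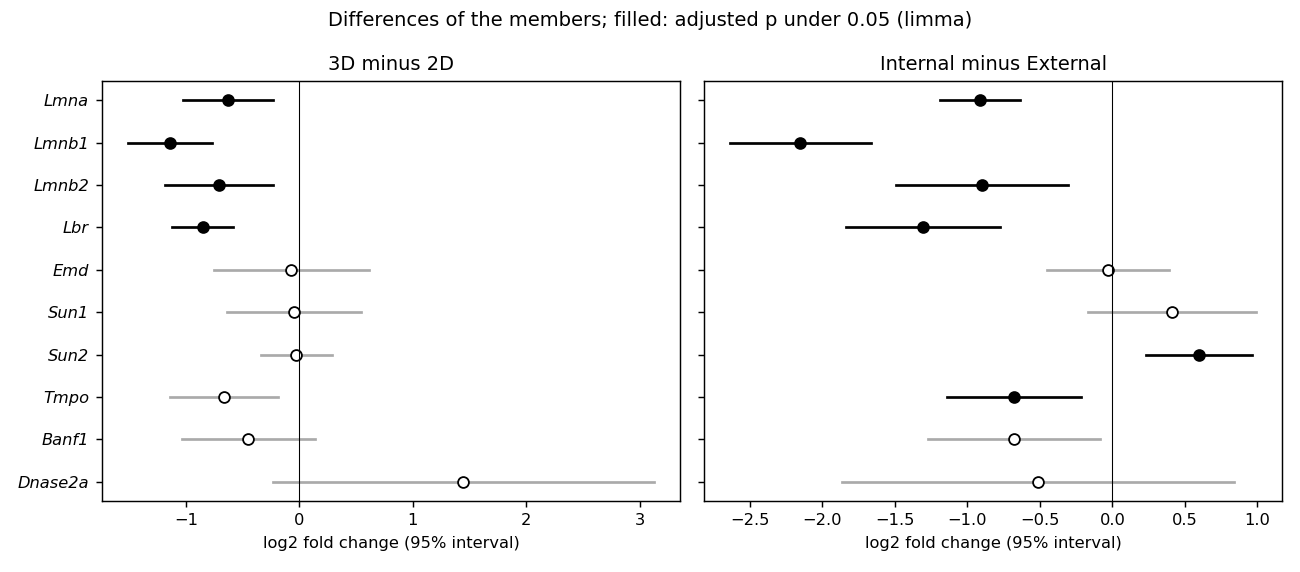
Log2 fold change of each gene with its 95% interval from limma, 3D minus 2D on the left and Internal minus External on the right. Filled points passed the test at an adjusted p under 0.05. The lamin genes and *Lbr* are filled and below 0 in both panels, *Lmnb1* being the furthest left, and *Tmpo* in 3D against 2D is open at an adjusted p of 0.0558 although its unadjusted interval excludes 0.

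The ratio of the A-type to the B-type lamin gene within a library does not depend on how libraries were scaled. The *Lmna* to *Lmnb1* ratio was 10.1, 12.6, 10.3 and 10.4 in 2D replicates 1 to 4 and 18, 17.8, 11.7 and 15.2 in the 3D replicates. Only 3D replicate 3 fell within the 2D range. The means were 3.44 ± 0.15 and 3.95 ± 0.29 on the log2 scale (SD, n = 4 each), a 1.43-fold higher ratio in 3D that did not pass a two-sided exact permutation test (p = 0.0571, adjusted over the 4 ratio tests 0.114). In the regions the ratio was 35.3, 23.8 and 30.7 in the External samples and 70.3, 58.3, 75.7 and 75.6 in the Internal samples. Every Internal ratio lay above every External ratio, and the difference of 1.24 on the log2 scale was 2.36-fold. The exact permutation p was 0.0286, the smallest that 3 against 4 samples allow, and 0.114 after Benjamini-Hochberg adjustment over the 4 tests. An adjusted p under 0.05 would have needed most of the 4 tests to reach that smallest p. The adjusted value could therefore hardly pass, and nothing is concluded from it. The *Sun1* to *Sun2* ratio differed by -0.02 on the log2 scale between 3D and 2D (exact permutation p = 1, adjusted 1) and by -0.19 between Internal and External (exact permutation p = 0.714, adjusted 0.952), less than the SD of 0.31 to 0.94 within the groups. The difference between the regions rested on single samples, being -0.72 without External replicate 3 and 0.18 without External replicate 1, and that between the cultures ran from -0.29 to 0.29 with 1 sample left out.

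**Figure D3:**
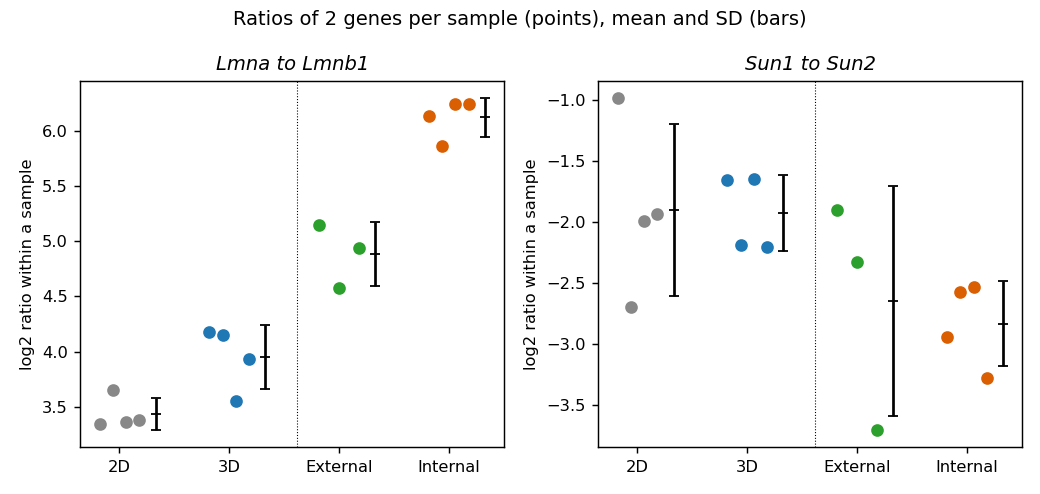
Log2 ratio of *Lmna* to *Lmnb1* (left) and of *Sun1* to *Sun2* (right) within each sample (points), with the group mean and SD (bars). The *Lmna* to *Lmnb1* ratio is 4.57 to 5.14 in the External and 5.86 to 6.24 in the Internal samples, while the *Sun1* to *Sun2* ratios overlap in both pairs of groups.

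Proliferation genes moved in the same direction as the lamin genes and *Lbr*. The list holds cyclin genes and *Cdc20* that the authors had named as lower in 3D or inside, so its counts give no independent support. Of 16 proliferation genes, 15 fell in 3D, against 9.25% of all genes, with a median log2 fold change of -1.23 (*Cdc20*, an activator of the anaphase-promoting complex, -1.51, and *Rrm2*, a ribonucleotide reductase subunit, -1.36), and their summed level was 2172 to 3576 CPM in 2D and 1094 to 1288 CPM in 3D. In the Internal region 14 of the 16 fell, against 12.1% of all genes, with a median of -3.62 (the cyclin genes *Ccne2*, -6.06, and *Ccna2*, -5.49), and their summed level was 1192 to 1506 CPM in the External and 133 to 196 CPM in the Internal samples. The proliferation marker *Mki67* had 132 to 210 CPM in 2D and 62.3 to 74.6 CPM in 3D (log2 fold change -1.34, adjusted p 0.00119). In the regions it had 94.2 to 114 CPM outside and 3.45 to 7.10 CPM inside (log2 fold change -4.08, adjusted p 1.89e-09). The part of proliferation in the lower levels of the lamin genes and *Lbr* was not tested. In these bulk samples, fewer cells of a type and less RNA per cell cannot be told apart.

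Among cell type markers, the lens marker genes *Maf* and *Pax6* rose in 3D by 1.11 and 0.69 on the log2 scale. In all, 3 of 5 listed lens markers rose there, against 9.74% of all genes. Without 3D replicate 1 or 3D replicate 3, 0 of the 5 passed. In the Internal region 4 of 5 rose, against 9.58% of all genes, led by *Prox1* (1.45) and *Maf* (1.25). Only 2 of 5 did so without External replicate 2, without both samples numbered 2, with the replicate block or without a variance trend. Of 4 listed fibroblast markers, 1 rose in 3D (*Dcn*, the proteoglycan decorin, by 5.86 on the log2 scale), with 2 to 238 reads in 2D and 1852 to 2780 reads in 3D. The other 3 did not pass the test, with differences of 0.81 for *Pdgfra*, 0.27 for *Col1a1* and -1.47 for *Col1a2*, which had 7 to 26 reads in 2D and 2 to 6 reads in 3D and was called only without 2D replicate 2 or without a variance trend. These 3 differences were picked out after their values were seen. The summed level of the 4 markers was 41.9 to 164 CPM in 2D and 329 to 451 CPM in 3D. In the regions 3 fibroblast markers were listed, of which *Col1a1*, a collagen chain, fell inside by 1.56 on the log2 scale, with summed levels of 175 to 462 CPM outside and 209 to 323 CPM inside. The part of these shifts in the values of the 10 genes was not tested. *Maf* and *Prox1* had been named by the authors as higher inside, and *Maf* as higher in 3D. The lens marker counts therefore give no independent support.

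Other genes of the nuclear envelope were described by group. The counts of called genes stand beside 9.74% of all genes higher and 9.25% lower in 3D, and 9.58% higher and 12.1% lower in the Internal region. Of 27 listed nucleoporin genes, whose products build the nuclear pore, 16 fell in 3D, with a median log2 fold change of -0.71 beside -0.03 over all genes. *Nup107*, a scaffold nucleoporin, fell by 1.72 (SE 0.44, limma adjusted p 0.0218) and *Nup155*, of the inner ring, fell by 1.21 (SE 0.20, adjusted p 0.00333). The count of nucleoporin genes that fell was 6 without 3D replicate 3 and 8 without 3D replicate 4. In the Internal region 5 of the 27 fell, among them *Nup43* (-2.12, SE 0.50, adjusted p 0.00328) and *Aaas* (-1.22, SE 0.27, adjusted p 0.00222). Their median there was -0.17. With all samples 6 were lower at an unadjusted p under 0.05 and 5 by voom, but without both samples numbered 2 the limma count was 0. The difference between the 2 comparisons in these counts was not tested.

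Of 10 other inner nuclear membrane genes, 1 was called in 3D against 2D, *Lemd2*, a LEM-domain gene, which rose by 0.53 (SE 0.12, limma adjusted p 0.0146). That count is near the 9.74% of all genes that rose and is no result about the group. In the regions 0 of the 10 were called by limma and 0 by voom, with 3 higher and 0 lower at an unadjusted p under 0.05. The SUN partners included 5 listed genes in the cultures, of which the nesprin gene *Syne3* fell in 3D by 0.58 (SE 0.15, adjusted p 0.0207), a call lost without 2D replicate 3 or 3D replicate 1, 3 or 4. In the regions 6 were listed: the nesprin gene *Syne1* was 0.76 higher inside (SE 0.22, adjusted p 0.0146), a call lost without External replicate 2, Internal replicate 1, Internal replicate 2 or both samples numbered 2, and without a variance trend. The plectin gene *Plec*, which links nesprins to intermediate filaments, fell inside by 0.89 (SE 0.13, adjusted p 2.27e-05). Of 6 listed genes of prelamin processing or binding, 0 were called by limma or by voom in either comparison, with 1 lower in 3D and 0 in the regions at an unadjusted p under 0.05.

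Among 12 genes of nuclear envelope resealing, *Chmp7*, the ESCRT component recruited to the envelope, rose in 3D by 0.84 (SE 0.19, limma adjusted p 0.0129). *Vrk1*, the kinase that acts on the *Banf1* product, fell by 0.75 (SE 0.20, adjusted p 0.0253), a call lost without 2D replicate 1 or 4 or 3D replicate 1, 3 or 4. In the regions 0 of 11 were called by limma and 0 by voom, with 3 higher and 0 lower at an unadjusted p under 0.05. Of 7 chromatin genes tied to the lamina, the HP1 genes *Cbx5* and *Cbx1*, whose products bind methylated histones, fell in 3D by 0.62 (SE 0.14, adjusted p 0.0151) and 0.40 (SE 0.11, adjusted p 0.0327). The number of these 7 genes that fell in 3D was 1 without 2D replicate 3 or 4 or any 3D replicate. In the Internal region *Rb1*, the retinoblastoma gene, rose by 1.67 (SE 0.40, adjusted p 0.00396), a call lost without a variance trend.

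The genes tied to denucleation were few. *Apex1* encodes an endonuclease of DNA repair, and of 5 listed deoxyribonuclease genes it alone was called, being lower in 3D by 0.72 (SE 0.13, limma adjusted p 0.00459) and lower inside by 0.97 (SE 0.25, adjusted p 0.00727). The latter call was lost without External replicate 3, without both samples numbered 2 and without a variance trend. Of 8 listed lens denucleation regulators, 2 rose in 3D, where 9.74% of all genes did so, while 5 of the 8 had a difference below 0 and the median was -0.27. None was called lower (0 by limma and 0 by voom, 2 at an unadjusted p under 0.05), but 2 were without both samples numbered 2, 2 with the replicate block and up to 3 with 1 sample left out. *Cdkn1b*, the cyclin-dependent kinase inhibitor p27, had 53.7 to 76.1 CPM in 2D and 138 to 182 CPM in 3D, 1.32 higher on the log2 scale (SE 0.15, adjusted p 0.000727), and *Bnip3l*, a mitophagy receptor gene, rose by 0.66 (SE 0.14, adjusted p 0.0121). In the Internal region 5 of 9 rose, against 9.58% of all genes, and 1 fell. The number that rose was 3 without a variance trend, 3 without both samples numbered 2 and 2 with the replicate block. *Hsf4*, a heat shock factor gene of the lens that was not listed for the cultures, had 0, 6 and 5 reads in the External samples and 62, 37, 26 and 142 reads in the Internal samples. All Internal samples were above the External ones, at 3.03 on the log2 scale (SE 0.73, adjusted p 0.00394). *Tdrd7*, a granule component gene, rose by 1.94 (SE 0.61, adjusted p 0.0239), and *Cdkn1b* rose by 0.66 (SE 0.19, adjusted p 0.0137). Of this list the authors had named *Hsf4*, *Tdrd7* and *Prox1* as higher inside and *Cdkn1b* as higher in 3D. The counts of this list therefore give no independent support.

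*Cdk1* encodes a kinase that phosphorylates lamins when the envelope is taken apart. It had 42.5, 16.5 and 18.4 CPM in the External samples and 1.5, 4.96, 7.79 and 2.07 CPM in the Internal samples, a fall of 2.7 on the log2 scale (SE 0.52, limma adjusted p 0.000537). Between the cultures it did not pass the test (-1.12 ± 1.0 SE, adjusted p 0.462), with the low samples numbered 2 in both groups. The other samples did not overlap, at 333 to 440 CPM in 2D and 106 to 144 CPM in 3D. *Cdk1* was called lower in 3D without both samples numbered 2 (-1.61, adjusted p 0.000803), without 2D replicate 2 alone (-2.26, adjusted p 0.0158) and with the replicate block (adjusted p 0.0342), and it was not called without 3D replicate 2 alone (-0.47, adjusted p 0.783). The count of denucleation regulators that rose inside was 3 by voom, 3 without External replicate 2, Internal replicate 2 or Internal replicate 4, and 2 without External replicate 3.

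**Figure D4:**
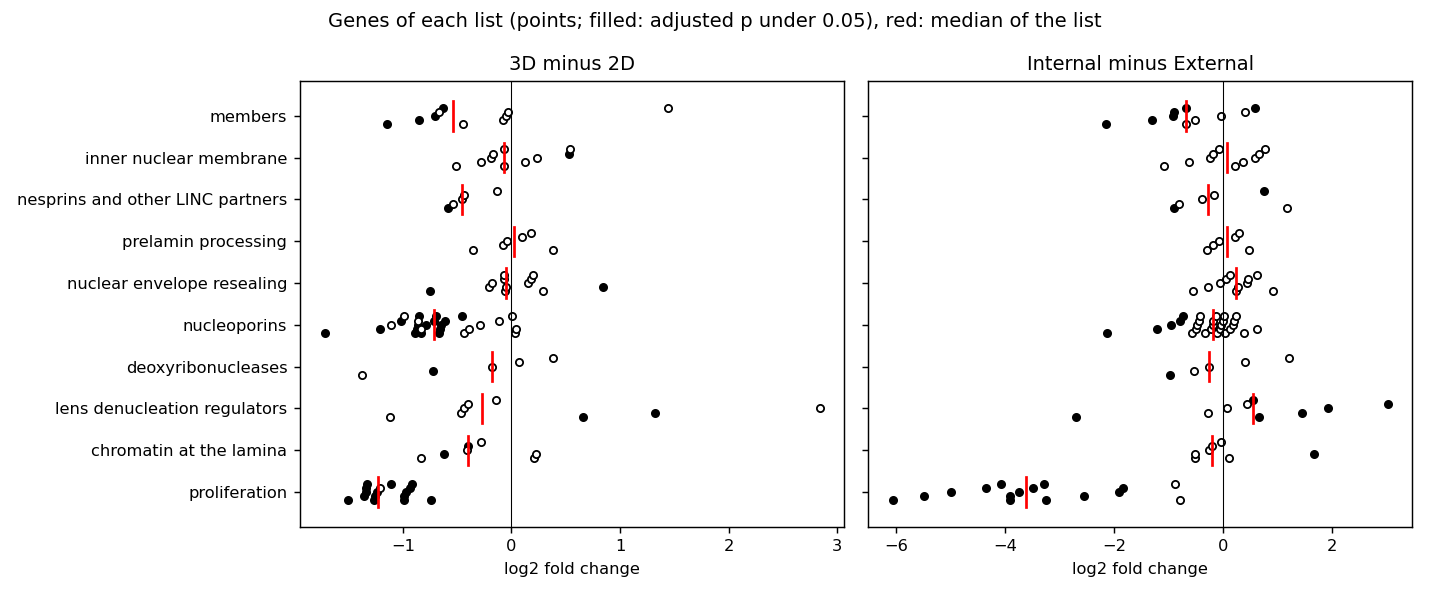
Log2 fold change of every listed gene of each gene group (points), 3D minus 2D on the left and Internal minus External on the right, with the group median as a red line. Filled points passed the test at an adjusted p under 0.05, and the line called members holds the 10 genes of the lamina and of DNA breakdown. The proliferation genes have the lowest median in both panels, at -1.23 and -3.62, and nucleoporin genes are shifted to the left in 3D against 2D with a median of -0.71.

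The genes most like *Lmnb1* and *Lmna* over the samples of a table were named by the smallest root mean square difference of log2 CPM, each gene centred on its own mean. Over the 8 culture samples and 8829 genes whose mean reached 3 log2 CPM, *Lmnb1* was nearest to *Sfpq* (0.107 log2 units), *Nup155* (0.141) and *Atad2* (0.151), and *Lmna* to *Ndufaf4* (0.0625), *Dnajc11* (0.0714) and *Ppm1g* (0.0737). Over the 7 regional samples and 8860 genes, *Lmnb1* was nearest to *Rfc5* (0.228), *Etv4* (0.248) and *Slc1a5* (0.249), and *Lmna* to *Snrpe* (0.0416), *Actb* (0.0533) and *Eif6* (0.0631). The 3 nearest genes of *Lmna* and those of *Lmnb1* were different in each table. These distances share the libraries and their scaling and are given as a description only.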

How the data were processed

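Libraries of 15 samples were made with a QuantSeq 3′ kit by the authors, who kept sense reads, aligned them with STAR 2.7.8a to GRCm38.p6, assigned unique alignments to genes with featureCounts 1.6.0 and kept genes above 0.2 CPM. The annotation release is not given in the sources used here. The authors set aside a further External sample because its expression differed from that of the others, and it was not analysed here. The regional differences and p-values therefore rest on External samples kept with their expression known. The deposited unit is log2 CPM, computed by the authors for each sample with a mean prior count of 2 and library sizes normalized inside each of 2 tables, so tests were made within a table. The authors' own fold changes and p-values, which the deposited tables also hold, were not used.

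The spacing of the log2 CPM values gave back whole reads (100% of values, tolerance 0.05 reads), which served for CPM levels and for limma voom as an alternative. Differences were fitted with limma 3.58.1 (R 4.3.3) on the deposited log2 CPM, with a variance trend and no further filter. Tests were two-sided, p-values were adjusted by Benjamini-Hochberg within a table, and an adjusted p under 0.05 was required. The fits were run on simulated counts in which 100 genes changed by 1 on the log2 scale. Of these, 98 were called for the cultures and 93 for the regions, with 9 and 6 false calls. The simulated counts had the same relative spread for every gene and no sample that stood apart. They therefore say little about the real samples. Ratios of 2 genes were tested by exact permutation in Python 3.11.15. Samples were grouped by the condition and replicate number in their labels. The genes and lists were chosen with earlier results of these data known, so they give no independent support. Named from each list were up to 2 called genes per direction with the largest fold change, beside all 10 genes, *Cdk1*, *Cdkn1b*, *Hsf4*, *Dnase2b* and *Mki67*. For *Lmna* and *Lmnb1* the 3 nearest genes were also named. Alternatives were another scaling, prior count, variance model, filter or threshold, a replicate block and leaving out samples.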

Additional observations from a re-analysis of the deposited data

Results flagged for a closer look

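In 36 groups of 4 samples (the 10 genes and the ratios, each in 2D, 3D and Internal samples), 4 held a sample far from the other 3, where chance alone gives about 1 in 20 groups. *Lmna* in 3D replicate 3 was at 10.40 log2 CPM (10388 reads), below 10.72 to 10.77 in the other 3D samples. *Tmpo* in 3D replicate 2 was at 6.68 log2 CPM (829 reads), below 7.05 to 7.11 in the others. *Banf1* in 2D replicate 2 was at 7.70 log2 CPM (1517 reads), below 8.74 to 8.89 in the others. The *Lmna* to *Lmnb1* ratio in 2D replicate 2 was 3.66 on the log2 scale, above 3.34 to 3.38 in the others.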

How the results depend on the processing

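None of the genes called reversed its direction under any alternative run. The signs of values that were not called did turn with 1 sample left out, for *Emd* in both comparisons, *Sun1* and *Sun2* in 3D, *Dnase2a* in the regions and the *Sun1* to *Sun2* ratio in both. The number of genes lower in 3D was 4, and it was 2 without a variance trend, 1 at an adjusted p under 0.01 with an absolute log2 fold change over 1, and 2 to 5 with 1 sample left out. The number lower in the Internal region was 5, and it was 3 without a variance trend, 3 without both samples numbered 2, 2 under the stricter threshold and 3 to 6 with 1 sample left out. The number higher in the Internal region was 1 (*Sun2*), and it was 0 without a variance trend, 0 with the replicate block, 0 without both samples numbered 2, 0 under the stricter threshold and 0 to 1 with 1 sample left out. The cause of these changes was not tested, apart from the stricter threshold, which admits fewer genes by construction. *Lmnb1* was called under every alternative run in both comparisons. With the median of all genes set to 0 in each sample, the calls of *Lmna* (adjusted p 0.0617) and *Lmnb2* (0.0671) in 3D were lost and *Tmpo* was called (0.0457). With library totals alone, *Tmpo* was called in 3D (0.0490) and not in the regions (0.0783).

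The replicate numbers are shared between groups, but no source says that they pair the samples. The deviations of same-numbered samples correlated by 0.00521 to 0.503 in the cultures, where 2 of 4 pairs were best with their own number, and by -0.0650 to -0.0440 in the regions (0 of 3). With a replicate block in limma, 6 genes were lower in 3D, adding *Tmpo* (adjusted p 0.0110) and *Banf1* (0.0458), and 4 lower in the Internal region, where *Tmpo* (0.112) and *Sun2* (0.0510) were no longer called. Internal replicate 4 has no External partner and does not enter the latter difference. The *Lmna* to *Lmnb1* ratio within shared numbers differed by 0.52 in the cultures and by 1.20 in the regions. With 4 and 3 pairs the smallest p that this exact test can give is 0.125 and 0.25, so it cannot pass the threshold and says nothing about stability.

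Read numbers were low for *Dnase2a*, with 0 to 63 reads per sample, for *Hsf4* in the External samples, with 0 to 6 reads, and for *Col1a2* in the cultures, with 2 to 26 reads.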
